A study of Homo sapiens with 2 samples.

Results

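The genes described here encode integrins, the matrix proteins they bind and the membrane proteins that work beside them. They were chosen by name, with earlier results of these data known. The 53 genes were looked up by current symbol or older alias in the probe annotation, where 18774 genes are named in all. Of the 53 genes, 50 had at least 1 named probe and together they had 70 probes. LAMA3, AGRN and DAG1 had no probe named by the annotation and were not analysed here. The cells were MDA-MB-231, an established and highly invasive human breast cancer line. One culture received an NSD3L-directed siRNA at 20 nM, where NSD3L is the long form of NSD3, an enzyme that methylates histones. The other received a non-specific targeted control siRNA, for which the labels give no concentration of its own. Transfection was done 2 times at an interval of 48 h, and cells were collected 48 h after the second. Each group was 1 array of bulk RNA. There was thus no error between cultures and no test of a gene, and fewer cells of a kind cannot be told apart from less RNA per cell.

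Integrins are receptors made of 1 alpha and 1 beta chain that span the membrane and tie the extracellular matrix to the actin cytoskeleton. Inside the cell, talin and kindlins bind the beta chain, and the complex of integrin-linked kinase, PINCH and parvin joins it to actin. Outside, laminins and collagen IV form the sheets of the basement membrane, and invading carcinoma cells attach to and move across such sheets. Tetraspanins sit beside integrins in the membrane, and syndecans bind matrix through heparan sulfate chains.

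Intensities were the deposited linear values of an Illumina beadchip, which kept their background, so ratios of dim probes are drawn toward 0. A probe counted as measured when it read above a floor of 40.9 on the NSD3L siRNA array and 41.0 on the control array, set at the upper edge of each array's background. Each gene is given by its brightest probe, and ratios are NSD3L siRNA over control. In pairs written as 1 value against another, the NSD3L siRNA array comes first. Across all 10538 measured genes the median log2 ratio was -0.0041, and the arrays had median intensities of 38.4 and 38.4. The 3 NSD3 probes themselves read 41.9 to 55.3 with the control siRNA and 37.6 to 41.6 with the NSD3L siRNA, lower on the NSD3L siRNA array in each case but too near the floor to establish depletion. Among fibroblast markers 0 of 7 exceeded the floor on either array, and of the line's own markers 7 of 8 were measured, with no named probe for the other.

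Most adhesion genes differed little between the arrays. Both arrays read above the floor for 40 of the 53 genes. With the NSD3L siRNA 21 of them were higher and 19 lower, where 49.3% of all measured genes were higher. Their median log2 ratio was 0.02, with a lowest value of -0.67 for ITGA1 and a highest of 0.70 for CD81. In 28 of the 40 genes, or 70.0%, the arrays differed less than 1.2-fold, against 64.9% of all measured genes. No adhesion gene was more than 2-fold higher or lower, where 0.342% of all measured genes were past 2-fold higher and 0.607% past 2-fold lower. Past 1.5-fold, 1 gene was higher, CD81, where 3.63% of all measured genes were, and 2 genes were lower, ITGA1 and ITGB2, where 4.06% of all measured genes were. With 40 genes, these counts lie near the shares in all genes. Of the 10 other genes with a probe, ITGA3 was above the floor on the NSD3L siRNA array alone, ITGA6, LAMA4 and THBS2 on the control array alone, and ITGA4, ITGA11, ITGB6, ITGB8, NID1 and HSPG2 on neither.

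**Figure D1:**
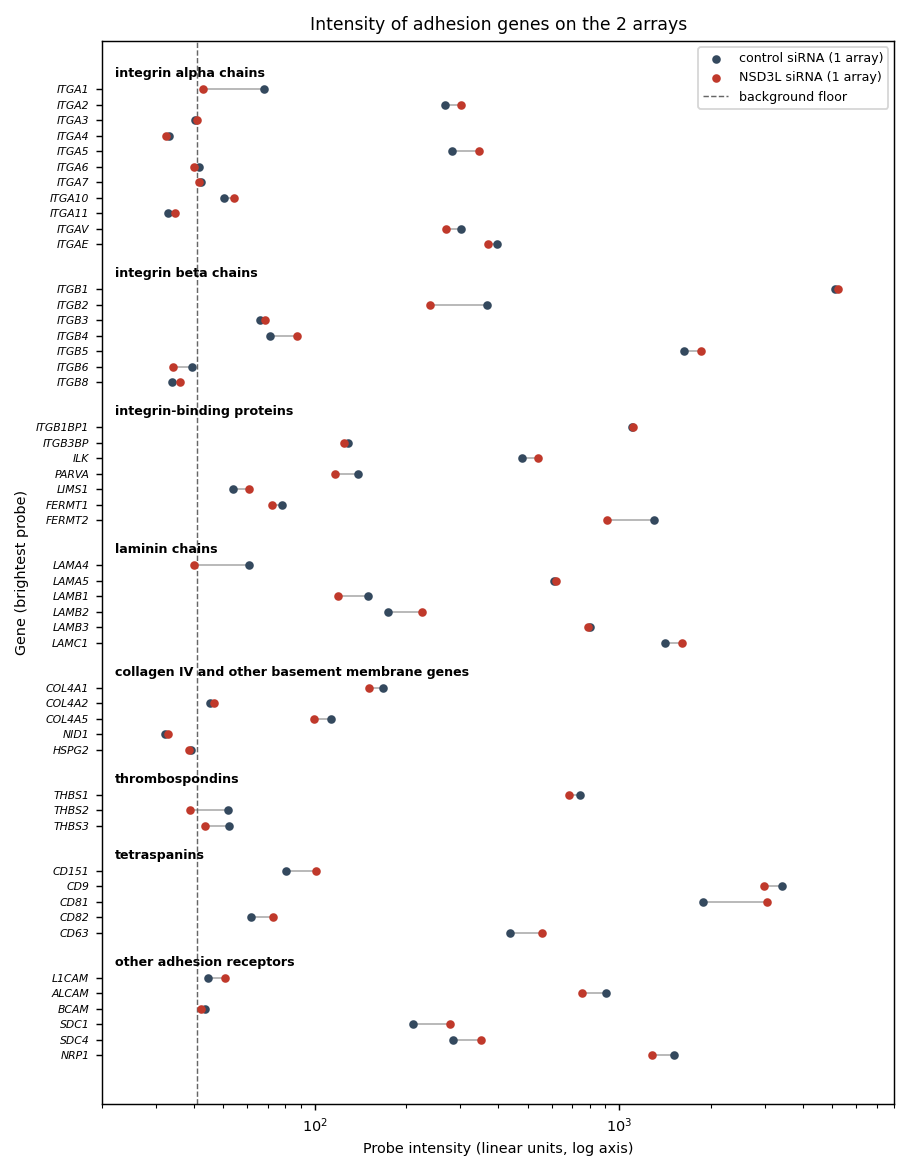
Probe intensity (horizontal log axis, linear units) of the 50 adhesion genes with a named probe on the control siRNA array and the NSD3L siRNA array, by class, with the background floor as a dashed line. The 2 points of most genes lie close together, and the widest gaps among genes above the floor on both arrays are those of ITGA1, ITGB2 and FERMT2, lower with the NSD3L siRNA, and CD81, higher with it.

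Sequence around the transcription start is shown for the genes at both ends of the measured range that have exactly 1 start-site window in the RefSeq table (GRCh38.p14), and for COL4A1, whose window overlaps that of COL4A2, so that the start regions can be read beside the ratios. Each window holds 250 bases before the start and 50 after it, 5′ to 3′ on the strand of the gene. CD81 and ITGB2 had no entry. Capitals mark a GC box (GGGCGG on either strand) or a CCAAT box (CCAAT on either strand), and adjoining or overlapping matches run together.

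ITGA1, chr5:52787666-52787965, plus strand: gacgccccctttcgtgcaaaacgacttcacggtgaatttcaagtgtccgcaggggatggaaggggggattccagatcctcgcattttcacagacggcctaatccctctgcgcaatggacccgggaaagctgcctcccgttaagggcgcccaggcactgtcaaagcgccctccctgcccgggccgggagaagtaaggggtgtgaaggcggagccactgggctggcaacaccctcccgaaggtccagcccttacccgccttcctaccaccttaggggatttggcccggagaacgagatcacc
FERMT2, chr14:52951001-52951300, minus strand: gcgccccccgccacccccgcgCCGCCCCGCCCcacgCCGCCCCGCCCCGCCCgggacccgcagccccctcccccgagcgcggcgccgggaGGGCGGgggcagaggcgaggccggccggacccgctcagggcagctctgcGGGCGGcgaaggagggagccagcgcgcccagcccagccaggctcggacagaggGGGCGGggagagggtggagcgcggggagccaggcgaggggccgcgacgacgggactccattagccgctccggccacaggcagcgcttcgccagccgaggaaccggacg
LAMB2, chr3:49133001-49133300, minus strand: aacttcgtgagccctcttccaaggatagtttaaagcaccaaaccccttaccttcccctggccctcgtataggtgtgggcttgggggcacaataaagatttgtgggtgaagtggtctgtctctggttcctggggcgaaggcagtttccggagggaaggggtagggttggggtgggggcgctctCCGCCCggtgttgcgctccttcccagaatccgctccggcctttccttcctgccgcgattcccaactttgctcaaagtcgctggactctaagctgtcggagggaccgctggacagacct
SDC4, chr20:45348375-45348674, minus strand: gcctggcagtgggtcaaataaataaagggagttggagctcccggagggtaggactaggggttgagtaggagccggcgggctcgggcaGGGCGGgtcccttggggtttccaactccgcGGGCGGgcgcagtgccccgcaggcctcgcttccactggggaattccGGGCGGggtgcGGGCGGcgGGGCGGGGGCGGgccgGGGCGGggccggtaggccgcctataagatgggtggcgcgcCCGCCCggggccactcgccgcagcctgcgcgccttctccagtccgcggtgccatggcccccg
COL4A1, chr13:110307108-110307407, minus strand: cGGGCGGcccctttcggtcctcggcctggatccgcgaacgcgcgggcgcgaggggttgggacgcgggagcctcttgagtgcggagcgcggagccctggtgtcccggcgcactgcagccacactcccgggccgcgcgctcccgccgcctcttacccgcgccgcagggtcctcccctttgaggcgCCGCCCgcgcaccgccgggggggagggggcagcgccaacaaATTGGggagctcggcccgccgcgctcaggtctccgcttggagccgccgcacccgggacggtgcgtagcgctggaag

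The windows at the ends of the range did not share a makeup. Among the genes with lower ratios, the ITGA1 window held 0 GC boxes and 19 CpG dinucleotides, and the FERMT2 window 8 GC boxes and 43 CpGs. Among those with higher ratios, the LAMB2 window held 1 GC box and 15 CpGs and the SDC4 window 8 GC boxes and 33 CpGs. COL4A1 and COL4A2 are divergent neighbours whose starts lie 127 bases apart. The COL4A2 window, chr13:110307034-110307333 on the plus strand, shares 226 bases with that of COL4A1, and the single CCAAT box lies in the shared bases. In all, 42 adhesion genes had 68 windows, of which 46, or 67.6%, held a GC box, against 45.0% of all 35116 windows in the table. A CCAAT box was in 23.5% of these 68 windows and in 34.6% of all. A TATA box (TATAAA), an E-box (CACGTG) or an AP-1 site (TGANTCA), searched on both strands, was in 5.88%, 4.41% and 7.35% of the 68 windows and in 11.5%, 7.26% and 7.71% of all. Both sets of windows include genes not measured here, and the median CpG count was 14 over all windows and 25 over the 68. Among measured genes, by 1 window per gene, it was 26 for all genes and 27 for the adhesion genes. Windows of 1 gene can overlap, so these shares of windows describe the table, and a match of letters is not a bound site.

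Among the alpha chains, which set the ligand that an integrin binds, 3 of 7 measured genes were higher and 4 lower, with a median log2 ratio of -0.02. ITGA1, the chain of a collagen receptor, read 68.3 with the control siRNA and 43.0 with the NSD3L siRNA. It was 1.59-fold lower, or -0.67 on the log2 scale. The log2 ratio had an SD of 0.22 among probes of similar brightness, and 99.4% of those probes had higher ratios than ITGA1. That SD describes these arrays across probes and is not an error between cultures. The NSD3L siRNA reading lay just above the floor, and the size of the ITGA1 difference depended on how background was handled. Its log2 ratio was -0.51 with an offset of 16 added to each intensity, -2.04 with the mode of each array subtracted, and -0.56 with the trend of ratio with local gene density removed. The other collagen-binding chains differed in direction or size, ITGA2 reading 302 against 267 with a log2 ratio of 0.18, and ITGA10 reading 54.3 against 50.4 with a ratio of 0.11. ITGA11, also of this group, was below the floor on both arrays.

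ITGA5, the chain of the classical fibronectin receptor, read 345 against 282, a log2 ratio of 0.29. ITGAV, which pairs with several beta chains to bind vitronectin and other ligands that carry the RGD tripeptide, read 269 against 303 and was on the other side at -0.17. Both ratios were smaller than the SD of 0.41 and 0.39 among similarly bright probes. ITGAE, the chain that binds E-cadherin on epithelium when paired with ITGB7, read 370 against 397, at -0.10. ITGB7 was below the floor on both arrays, at 33.8 against 35.6. The laminin-binding chains could hardly be measured. ITGA7 read 41.6 against 42.3, ITGA3 read 41.2 against 40.5 and ITGA6 read 40.2 against 41.7, all close to the floor. The bounds for ITGA3 and ITGA6, log2 values of 0.0057 and -0.03, say little.

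The beta chains were higher in 4 of 5 measured genes, by small amounts, with a median log2 ratio of 0.06. ITGB1, the common partner of most matrix-binding alpha chains, read 5242 against 5109 by its brightest probe, a log2 ratio of 0.04, and 1398 against 1276 by a dimmer one, a ratio of 0.13. ITGB1 was thus nearly level on the arrays while the ratios of its alpha partners ITGA1 and ITGA5 lay on opposite sides of 0. ITGB5, a partner of ITGAV, read 1853 against 1628, a ratio of 0.19, and its dimmer probe gave 0.38. ITGB4, which joins with ITGA6 in hemidesmosomes, read 87.6 against 71.0, at 0.30, and ITGB3, also an ITGAV partner, read 68.8 against 66.1, at 0.06. ITGB2, the chain of leukocyte integrins, stood apart from the other beta chains in direction. It read 367 with the control siRNA and 238 with the NSD3L siRNA and was 1.54-fold lower, or -0.62 on the log2 scale. The SD among similarly bright probes was 0.39, and 5.52% of them had lower ratios. The alpha chains known to pair with ITGB2, namely ITGAL, ITGAM and ITGAD, were below the floor on both arrays, and ITGAX read 48.4 against 49.7. Of the blood cell markers, 3 were measured. CD68 read 1195 against 1179, CD14 read 50.2 against 53.8 and LYZ read 47.9 against 45.5, while PTPRC and CD3E were below the floor on both arrays. The part of blood cell transcripts in the ITGB2 ratio was not tested. ITGB2 was past 1.5-fold lower under all 10 alternative settings, with log2 ratios from -0.71 to -0.59. Those that changed the floor or probe choice could not alter the ratio of its single bright probe, and quantile normalization left it unchanged.

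**Figure D2:**
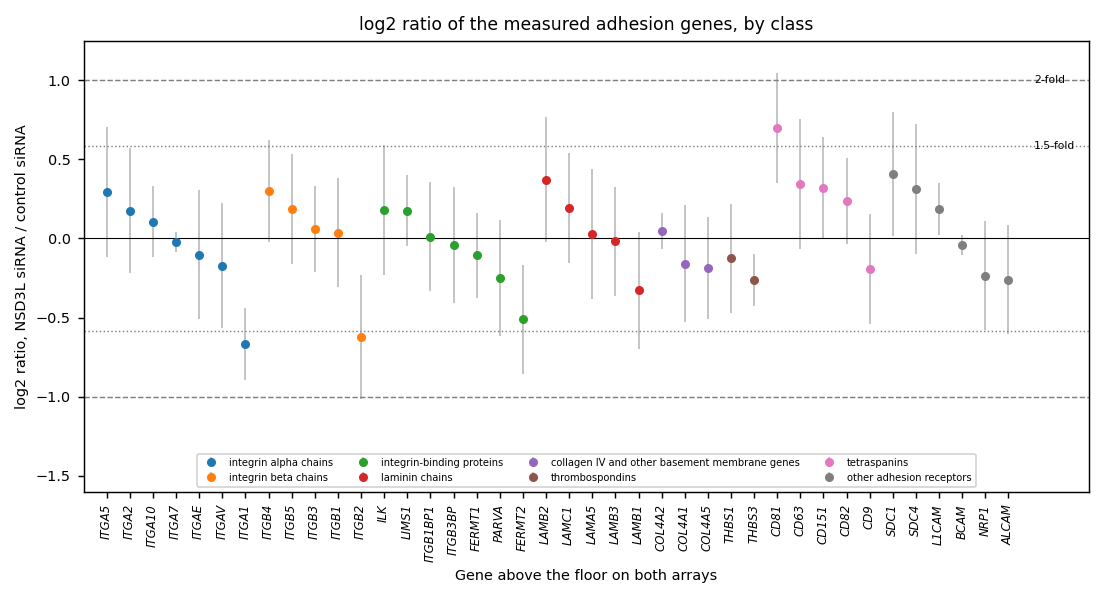
log2 ratio (NSD3L siRNA over control) of the 40 measured adhesion genes, coloured by class, with bars of 1 SD of the ratio among probes of similar brightness and lines at 1.5-fold and 2-fold. CD81 alone lies above the upper 1.5-fold line, ITGA1 and ITGB2 alone lie below the lower one, and 4 of 5 tetraspanins lie above 0.

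The proteins that bind integrins inside the cell were all measured, 3 of 7 being higher and 4 lower, with a median log2 ratio of -0.04. FERMT2, encoding kindlin-2, which binds beta chains and helps talin to activate them, had the largest difference of this class. It read 1298 with the control siRNA and 910 with the NSD3L siRNA and was 1.43-fold lower, or -0.51 on the log2 scale, with an SD of 0.35 among similarly bright probes. That ratio ran from -0.53 to -0.42 under the alternative settings. FERMT1, encoding the epithelial kindlin-1, read 72.5 against 78.0, at -0.11. The members of the kinase complex lay on both sides of 0. ILK, the integrin-linked kinase, read 542 against 479 with a ratio of 0.18, and LIMS1, encoding PINCH, read 60.9 against 53.9, also at 0.18. PARVA, encoding alpha-parvin, read 117 against 139, at -0.25. LIMS1 has near-identical copies in the genome, and whether its probe tells them apart was not tested. ITGB1BP1, encoding a protein that binds the ITGB1 tail, read 1107 against 1098, at 0.01, and ITGB3BP, which encodes a kinetochore protein also found to bind the ITGB3 tail, read 125 against 128, at -0.04.

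Laminins are trimers of an alpha, a beta and a gamma chain. Of the 5 measured chains, 3 were higher and 2 lower, with a median log2 ratio of 0.03. LAMA5 read 621 against 609, at 0.03, and LAMC1, the common gamma chain, read 1609 against 1408, at 0.19. These chains assemble with either LAMB1 or LAMB2, and the ratios of the alternative beta chains lay on opposite sides of 0. LAMB1 read 119 against 149, a log2 ratio of -0.33, while LAMB2 read 226 against 174, a ratio of 0.37. Each ratio alone was smaller than the SD of its similarly bright probes, 0.37 for LAMB1 and 0.39 for LAMB2. LAMB3, a chain of the epithelial laminin of hemidesmosomes, read 791 against 801, at -0.02. LAMA4, a chain of vascular and mesenchymal laminins, read 60.7 with the control siRNA and 40.02 with the NSD3L siRNA, the latter under the floor. It was at least 1.48-fold lower, and its measured log2 ratio was -0.60 where no floor was set.

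The other basement membrane genes and the thrombospondins gave ratios mostly below 0. COL4A1 and COL4A2 encode the chains of the common collagen IV network and share the start region printed above. COL4A1 read 150 against 168, a log2 ratio of -0.16, and COL4A2 read 46.7 against 45.1, a ratio of 0.05 from a probe near the floor, so that the pair could not be compared in size. COL4A5, a chain of another collagen IV network, read 99.5 against 113, at -0.18. NID1, encoding nidogen-1, which links the laminin and collagen networks, and HSPG2, encoding perlecan, were at background. THBS1, encoding thrombospondin-1, a matrix protein that binds CD47 and integrins, read 681 against 743, at -0.13. THBS3 read 43.5 against 52.2, at -0.26, or -0.998 with the mode subtracted. The SD among probes as bright as that of THBS3 was 0.16, and 6.25% of them had lower ratios. THBS2 read 38.8 against 51.9, the former under the floor, and was at least 1.27-fold lower. Its log2 ratio was -0.42 where no floor was set. All 3 thrombospondins read lower with the NSD3L siRNA, but only THBS1 was well clear of the floor.

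The tetraspanins gave the highest median of the 8 classes, a log2 ratio of 0.32, with 4 of 5 genes higher. CD81, a partner of integrins and of immunoglobulin-domain proteins, read 1876 with the control siRNA and 3042 with the NSD3L siRNA. It was 1.62-fold higher, or 0.70 on the log2 scale. The SD among similarly bright probes was 0.35, and 2.85% of them had higher ratios. CD81 kept a ratio between 0.69 and 0.71 under all 10 alternative settings. Those that changed the floor or probe choice could not alter the ratio of its single bright probe, and quantile normalization left it unchanged. CD63, a tetraspanin of late endosomes and exosomes, read 557 against 438, at 0.35. CD151, which binds laminin-binding integrins directly, read 101 against 80.7 by its brightest probe, at 0.32, and 94.0 against 77.8 by its other probe, at 0.27. CD82, known as a suppressor of metastasis, read 72.9 against 61.9 by its brightest probe, at 0.24. The dimmer CD82 probe was above the floor on the control array alone, at 38.5 against 41.9. CD9 was the gene of this class that was lower. It read 2990 against 3419, a ratio of -0.19, and its dimmer probe, at 49.7 against 47.6, gave 0.06. The ratios of CD63, CD151, CD82 and CD9 were each smaller than the SD of their similarly bright probes.

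**Figure D3:**
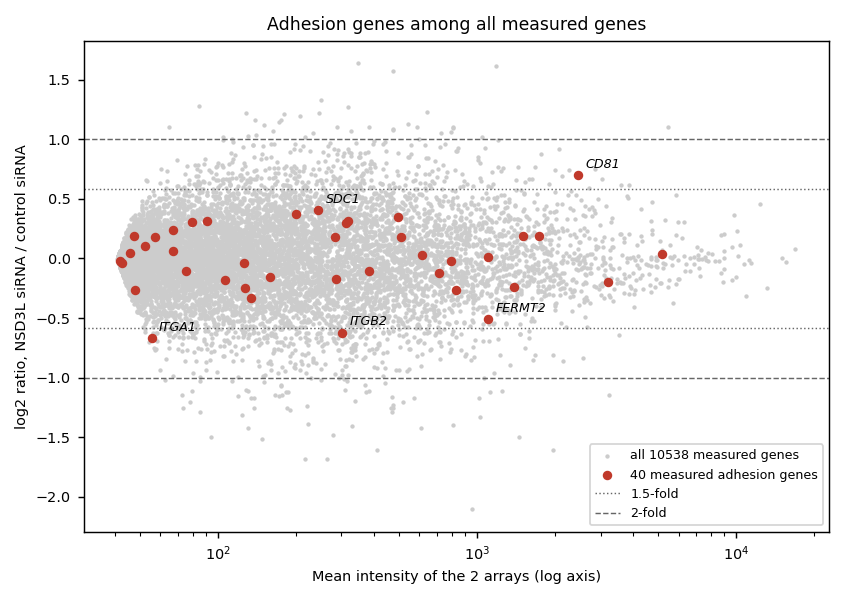
log2 ratio against the mean intensity of the 2 arrays (log axis) for all 10538 measured genes in grey and the 40 measured adhesion genes in red, with lines at 1.5-fold and 2-fold. The adhesion genes lie within the cloud of all genes, with ITGA1 and CD81 at its edges for their brightness.

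The other adhesion receptors were split, with 3 of 6 measured genes higher and 3 lower and a median log2 ratio of 0.07. The syndecans lay on both sides of 0. SDC1 read 279 against 210, at 0.41, and SDC4, a focal adhesion syndecan, read 352 against 284, at 0.31, beside SDs of 0.39 and 0.41 among similarly bright probes. SDC2, from the wider list of receptors, read 86.9 against 100.1, at -0.20, and SDC3 was above the floor on the NSD3L siRNA array alone. ALCAM, an immunoglobulin-domain adhesion molecule, read 754 against 903, at -0.26. NRP1, a co-receptor of semaphorins and vascular growth factors that also binds integrins, read 1281 against 1509 by its brightest probe, at -0.24, and 234 against 293 by a dimmer one, at -0.32. L1CAM, a neural adhesion molecule also found on carcinomas, read 50.7 against 44.5, at 0.19, and at 0.71 with the mode subtracted. BCAM, a receptor for LAMA5, read 42.2 against 43.4, near the floor.

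Several genes had further probes that bear on these values. In 7 genes, 2 probes were above the floor on both arrays, and the log2 ratios of a gene's probes differed by 0.02 for LAMB3 up to 0.25 for CD9. They had the same sign in CD151, ITGB1, ITGB1BP1, ITGB5 and NRP1 and opposite signs in CD9 and LAMB3, where a ratio close to 0 was involved. For comparison, probes of the same gene had an SD of 0.20 in the 288 genes with several probes above 100. CD81, ITGA1, ITGB2 and FERMT2 each had a single named probe, so none of the largest differences was repeated by another probe.

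The ratios of the adhesion genes varied with the number of neighbouring genes, as did those of all measured genes. Local density counts the protein-coding neighbours whose midpoint lies within 500 kb on either side. Of the 22 measured adhesion genes with a density of at most 10, 9 were higher and 13 lower, with a median log2 ratio of -0.07. Of the 18 with a density of at least 11, the split was 12 higher and 6 lower, and the median was 0.14. Among all measured genes split at the same density, the medians were -0.09 and 0.06, and 1741 of 4814 and 3238 of 5348 genes were higher. CD63 and CD151 had 41 and 39 neighbours, CD81 had 14, NRP1 and ALCAM had 1 each, and ITGA1 had 3. ITGB2, with 24 neighbours and a ratio of -0.62, and THBS3, with 33 and -0.26, were among the genes that went against that order. So were SDC1, with 8 neighbours and 0.41, and CD82, with 4 and 0.24. With the density trend removed, the tetraspanin median was 0.23 and that of all measured adhesion genes 0.07. The ratios also differed with gene length. Of the 26 measured adhesion genes longer than 28.9 kb, the median of all measured genes, 10 were higher and 16 lower, with a median log2 ratio of -0.07, and the 14 others split into 11 higher and 3 lower around a median of 0.24. Among all measured genes split at that length the medians were -0.03 and 0.02, and 2332 of 5265 and 2854 of 5265 genes were higher. Length and density went together, the longer adhesion genes having a median of 6 neighbours and the others 29. The parts of gene density and gene length in these ratios were not tested.

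**Figure D4:**
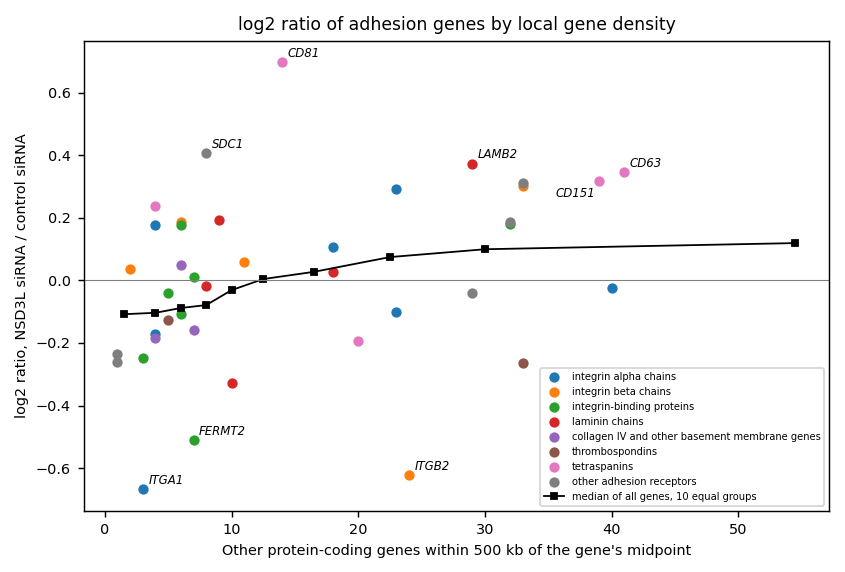
log2 ratio of the 40 measured adhesion genes, coloured by class, against the count of protein-coding neighbours within 500 kb, with the median of all measured genes in 10 equal groups of density as black squares. Genes with few neighbours lie mostly below 0 and those with many mostly above, with ITGB2, THBS3, SDC1 and CD82 among those that do not.

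Wider adhesion lists were set beside these genes, and their counts past 1.5-fold stand against the 3.63% of all measured genes that were higher and the 4.06% that were lower. Of 30 focal adhesion proteins, 22 were measured, 15 higher and 7 lower, with a median log2 ratio of 0.15, and 2 were past 1.5-fold higher and 1 past 1.5-fold lower. TLN1, encoding talin, the protein that binds and activates beta chains, read 183 with the control siRNA and 393 with the NSD3L siRNA. It was 2.15-fold higher, or 1.10 on the log2 scale. TLN1 was the only gene of these lists past 2-fold. GIT1, a scaffold of focal adhesion turnover, read 75.7 against 45.0, at 0.75. Its control reading lay near the floor of 41.0, so the size of this ratio is uncertain. PTK2, encoding focal adhesion kinase, read 1138 against 1921, at -0.75 or 1.69-fold lower, but its dimmer probe, at 60.7 against 62.4, gave -0.04. Of the activators of beta chains, TLN1 at 1.10 and FERMT2 at -0.51 thus lay on opposite sides, each by a single probe. TLN2, the other talin gene of the list, read 56.4 against 50.4, at 0.16, and FERMT1 was at -0.11.

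Of 30 other matrix genes, 19 were measured, with a median log2 ratio of 0.08. All 3 past 1.5-fold were higher. SERPINH1, the collagen chaperone, read 343 against 206, at 0.74. PLOD1, a lysyl hydroxylase, read 1338 against 878, at 0.61, and P4HA2, a prolyl hydroxylase subunit, read 424 against 282, at 0.59, just past the threshold. The other lysyl hydroxylases were not higher past 1.5-fold. PLOD2 read 1050 against 1327, at -0.34, with -0.27 by its dimmer probe, and PLOD3 read 54.8 against 53.6, at 0.03. The fibronectin gene FN1 and the collagen genes COL1A1, COL1A2 and COL3A1 were below the floor on both arrays. Of 23 other matrix receptors and partners, 16 were measured, with a median of 0.12 and 3 past 1.5-fold higher. They were PLEC, encoding the hemidesmosome linker plectin, at 96.4 against 56.2 and 0.78, ADAM15, encoding a metalloprotease with an integrin-binding domain, at 1420 against 861 and 0.72, and the tetraspanin gene TSPAN8, at 228 against 144 and 0.66. Dimmer probes of ADAM15 gave 0.48 and 0.10. A dimmer PLEC probe was above the floor on the NSD3L siRNA array alone, at 42.2 against 39.9. The other dimmer PLEC probes were below the floor on both arrays. Of 19 other integrin, laminin, collagen IV, nidogen and thrombospondin genes, only ITGAX, LAMA1 and LAMB4 were measured, and none was past 1.5-fold.

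**Figure D5:**
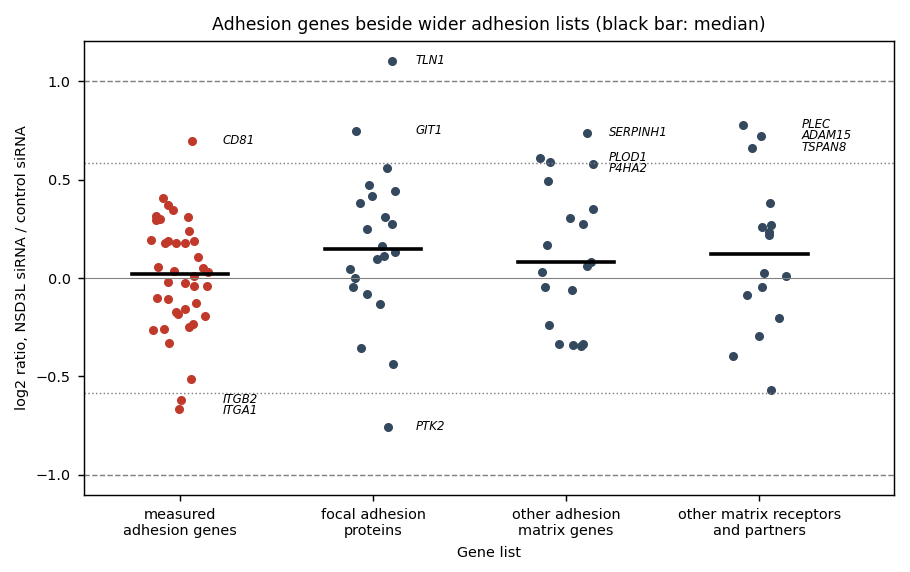
log2 ratio of each measured gene in the 40 measured adhesion genes (red) and in 3 wider adhesion lists (dark), with medians as black bars and lines at 1.5-fold and 2-fold. Genes past 1.5-fold are named, and TLN1 alone is past 2-fold.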

How the data were processed

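RNA of 2 cultures of MDA-MB-231 cells was measured on Illumina beadchips, 1 array per siRNA. The authors' deposited table holds linear intensities of 48701 probes. BeadStudio was used per the submitters' processing notes. Its version and any correction for background or normalization are not stated in what was used here. Sorted by size, the values of the arrays nearly coincided, so their equal median intensities are no separate observation. Probes were named through a platform annotation whose array version was not established to be that of the series description. It gave 1 symbol for 23687 probes, several for 35 and none for 24979. Symbols were updated through the gene number, found in the RefSeq table for 23651.

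The log2 ratio of each probe was computed with no offset (Python 3.11.15, numpy 2.4.6, pandas 2.3.3, scipy 1.17.1, statsmodels 0.14.6). The floor was 2 times the mode of an array's intensities less their 1st percentile. Where 1 array was under its floor, that floor stood in for its value and the ratio is a bound. Spread was described by the SD of the log2 ratio over probes in 10 equal groups of mean intensity. The steps were tested on simulated data. With 1 array per group no p-values were computed, and precision is limited by the number of arrays.

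The members and lists were chosen with earlier results of these data known. All members were described, and from each wider list up to 3 genes past 1.5-fold. The other genes named from the lists and markers, among them ITGAL, ITGAM, ITGAD, ITGAX, LAMA1, LAMB4, FN1, COL1A1, COL1A2, COL3A1, PTPRC, CD3E and CD68, and the comparisons of start-site windows and gene length were picked with their values in view. The 10 alternatives changed the normalization, intensity trend, background, offset, floor, probe choice or gene density trend.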

Additional observations from a re-analysis of the deposited data

How the results depend on the processing

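Of 130 medians and counts recomputed under 10 alternatives, 124 stayed and 6 moved. Staying meant within the SD between probes of 1 gene, or within 1.5 times for counts. Quantile normalization could hardly move a value, as the sorted values of the arrays nearly coincided. The 124 thus include values that a setting could hardly move. Past 1.5-fold lower, 1 gene remained in place of 2 under 3 settings. They were the 75th percentile as floor, an offset of 16 and removal of the gene density trend. Of all measured genes, 4.75%, 3.07% and 3.20% were past 1.5-fold lower under these settings, in that order. With the offset and with the trend removed, ITGA1 fell short, at -0.51 and -0.56. With the 75th percentile as floor, the NSD3L siRNA reading of ITGA1 lay under that floor. Its ratio was then a bound of -0.48 and was not counted. With no floor, or with the median as floor, LAMA4 was measured at -0.60 and the count was 3. Of all genes, 2.34% and 3.62% were past 1.5-fold lower under these settings. Subtracting the mode of each array gave 2 genes past 1.5-fold higher (CD81 and L1CAM), 3 past 1.5-fold lower and 1 past 2-fold lower (ITGA1). Of all measured genes, 10.7% and 12.1% were then past 1.5-fold higher and lower, and the share past 2-fold is not given here. The thrombospondin median was -0.57 under this setting, since it enlarges ratios of dim probes. The median of all measured adhesion genes ran from -0.02 to 0.07. Of 437 single values and counts of measured genes, 15 moved beyond the SD of probes of like brightness. No gene past 1.5-fold changed sign under the 10 alternatives. With the mode subtracted the bounds for LAMA4 and THBS2 were -2.08 and -1.48 and LIMS1 was 0.45. Readings near the floor limit ITGA1, ITGA3, ITGA6, ITGA7, LAMA4, COL4A2, THBS2, THBS3, L1CAM and BCAM. Among the genes of the wider lists past 1.5-fold, GIT1 had a control reading near the floor. No paired analysis was possible because each group had 1 array.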
